A study of Gallus gallus with 403 samples.

Results

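The ovary of the chicken, Gallus gallus, was set against the somatic tissues of the same array collection. The ovary was represented by 9 of 403 arrays, chosen by their titles: 3 titled ovarian-cortex_w16, 3 titled ovary_w17 and 3 titled ovary_y2. The first group held cortex of hens aged 16 weeks, the second whole ovary at 17 weeks and the third whole ovary at 2 years. The reference was 370 arrays in 92 groups of 1 tissue and 1 age, from 16 somatic tissues aged 0 to 49 days and labelled as of both sexes. The 3 ovary groups had equal weight, and so had the 16 tissues, each the mean of its age groups. A further 3 arrays of testes at 17 weeks (testes_w17) and 4 titled oocytes at 21 weeks (oocytes_w21) served as the closest comparisons, and 17 arrays of liver at 56 days and of pectoralis muscle with uncertain ages were not used. No treatment, mutation or strain is named in the labels, and they do not say whether the arrays of a group came from separate birds. The p-values below therefore measure the spread between arrays, which may be technical. All ovary groups were older than every somatic group, so age and tissue cannot be told apart in the main comparison.

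The labels of some gonad arrays contradicted each other. The 3 arrays of ovary_w17 are labelled male, 2 of the 4 oocyte arrays are labelled male and 2 female, and the free description of ovary_y2 speaks of 2 weeks where its source name speaks of years. Birds carry the sex chromosomes Z and W, and W is found in females. HINTW, a W-linked gene, had log2 intensities of 11.46, 11.29 and 11.40 in ovarian-cortex_w16, of 11.31, 11.37 and 9.96 in ovary_w17 and of 11.19, 11.43 and 11.05 in ovary_y2, against 5.51, 6.28 and 6.02 in testes_w17. Arrays 1 and 2 of ovary_w17, labelled male, thus had the W-linked level of the other ovary groups. Array 3, at 9.96, lay below that level, and none of these arrays overlapped with testes. HNRNPKL, also W-linked, read 8.98, 9.24 and 8.75 in ovary_w17, against 5.35, 5.41 and 5.36 in testes_w17. It read 9.22, 8.41 and 8.56 in ovarian-cortex_w16 and 7.74, 7.67 and 7.98 in ovary_y2. By this gene array 3 of ovary_w17 lay within the range of ovarian-cortex_w16 and above ovary_y2. On the oocyte arrays HINTW read 9.28 and 9.01 where labelled male and 9.20 and 8.68 where labelled female. HNRNPKL read 9.25 and 8.89 on the former and 9.15 and 9.82 on the latter. All oocyte arrays thus lay above testes_w17 for both genes, whatever their label.

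The hen's ovary holds oocytes in follicles, each wrapped in granulosa cells and, outside these, theca cells. Granulosa and theca cells make progesterone, androgens and oestrogens under the control of pituitary gonadotropins, while the oocyte stores maternal RNA and takes up yolk that is made in the liver. A coat of zona pellucida glycoproteins, the perivitelline layer, lies between the oocyte and the granulosa cells. In RNA of a whole organ, fewer cells of a type and less RNA per cell cannot be told apart.

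Both genes used to check the label were high in ovary, but not in all groups. FOXL2, a transcription factor of granulosa cells, read 12.93, 13.33 and 13.19 in ovarian-cortex_w16, 10.42, 11.50 and 11.80 in ovary_w17 and 10.72, 10.39 and 10.24 in ovary_y2, against 4.21 to 8.52 with a median of 6.22 over the somatic arrays. Every ovary array lay above every somatic array. The egg coat gene ZP3 read 6.74, 6.46 and 6.51 in ovarian-cortex_w16, 7.03, 5.25 and 6.95 in ovary_w17 and 11.05, 11.46 and 9.85 in ovary_y2, against 4.37 to 7.23 over the somatic arrays. The arrays of ovary_y2 alone were above the somatic range for ZP3, and the other 6 lay within it.

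**Figure D1:**
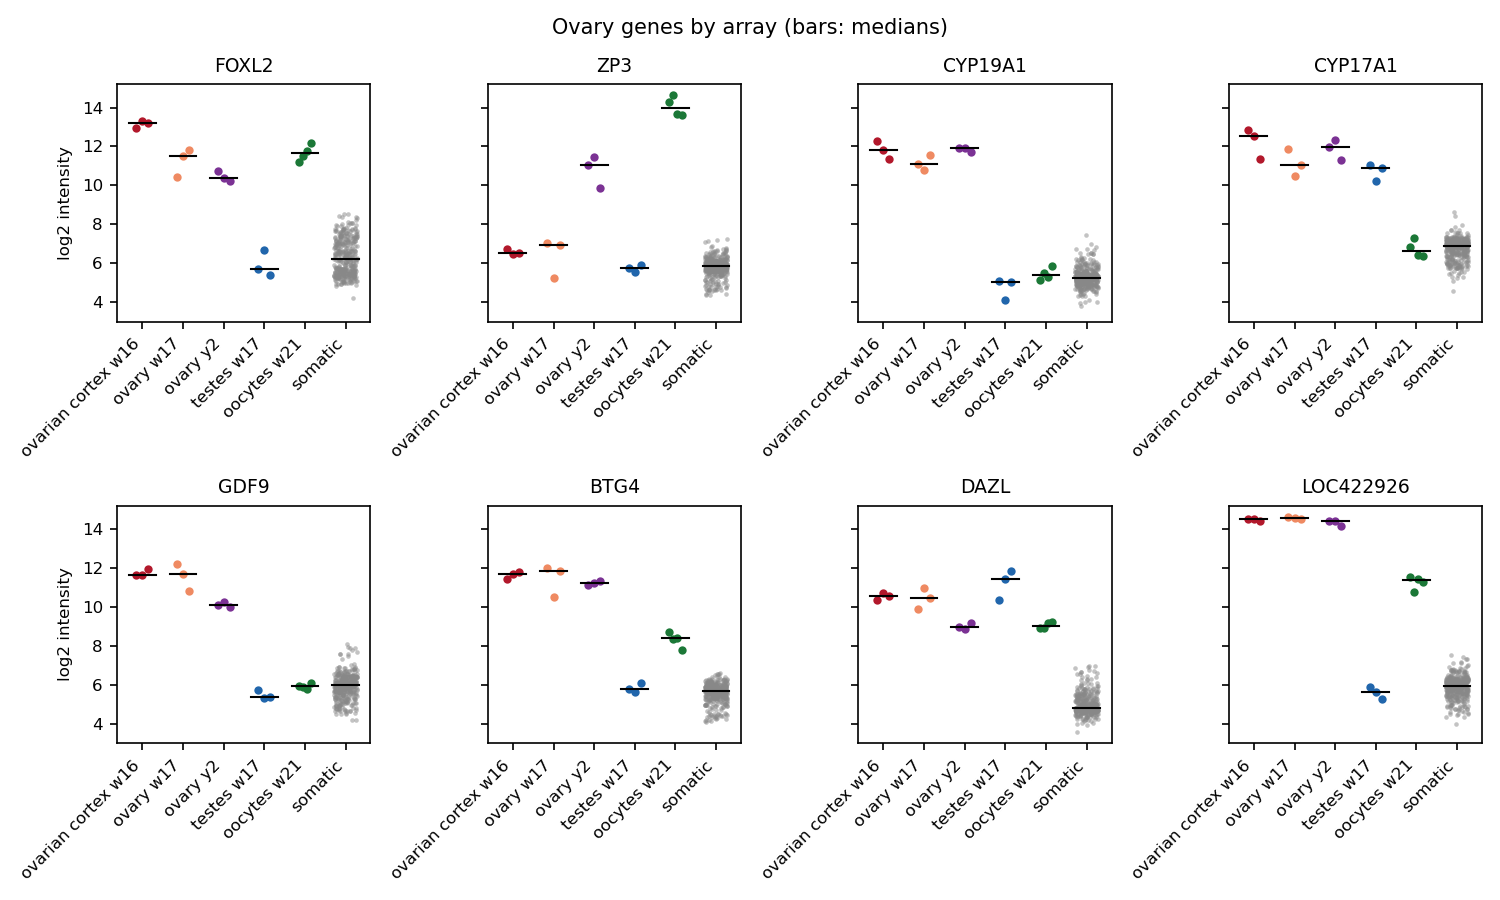
Log2 intensity of 8 genes on single arrays, with a panel for each gene and the ovary groups left of testes, oocytes and somatic arrays; each point is 1 array. FOXL2 was above the highest somatic array, 8.52, on all 9 ovary arrays, and ZP3 was above the highest somatic array, 7.23, on the 3 arrays of ovary_y2.

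Signal replaced depth on these arrays: the median log2 intensity of the ovary arrays was 6.08 to 6.09 in ovarian-cortex_w16, 6.14 to 6.21 in ovary_w17 and 6.11 to 6.12 in ovary_y2. Groups differed in how far their arrays lay apart. The median standard deviation (SD) of a probe set within the group was 0.160 in ovarian-cortex_w16, 0.372 in ovary_w17 and 0.095 in ovary_y2. Array 1 of ovary_w17 correlated at 0.942 to 0.946 with the arrays of ovary_y2 and at 0.914 with the others of its own group, across probe sets. Arrays 2 and 3 of ovary_w17 correlated at 0.867 to 0.872 with those of ovary_y2. Results that involve ovary_w17 rest on that wider spread. Leaving this group out, an alternative chosen after the data were seen, left 529 genes higher and 68 lower in ovary.

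More genes stood out above the somatic tissues than below them. A gene was called at an adjusted p under 0.05 (limma, Benjamini-Hochberg over 13005 genes) and a log2 difference of at least 2, which is 4-fold, between the mean of the ovary groups and the mean of the tissues. By this rule 526 genes were higher in ovary, 4.04% of those tested, and 63 were lower, 0.484%. The median difference over all genes was 0.005. For 163 of the higher genes, 1.25% of those tested, all 9 ovary arrays also lay above all 370 somatic arrays. For none of the lower genes did all 9 lie below them. Genes that were not called were left out of these counts. Of the 163, all 9 ovary arrays also lay above every array of testes_w17 for 122, of oocytes_w21 for 91 and of both for 71. The called genes had a median difference of 2.57 where higher and of 2.22 in size where lower, and that of the 163 was 3.26. The count of lower genes moved with the setting: it was 14 when group means of ovary were tested against tissue means and 171 when somatic groups under 42 days were left out. The corresponding counts of higher genes were 483 and 736. Among the higher genes described with their lists below, GJA1, TCF21, EPCAM, DSP, SOX17, SLC15A1, HPX and NEFM lost their call in that test of group means, with adjusted p-values between 0.0673 and 0.356.

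The ovary groups did not contribute equally to these calls. The difference from somatic tissues reached 2 in each of the 3 groups, which share the same somatic arrays, for 274 of the 526 higher genes and for 140 of the 163. It was of largest size in ovarian-cortex_w16 for 284 of the 526, in ovary_w17 for 178 and in ovary_y2 for 64. For 446 of the 526 genes the ovary mean was also above the mean of each of the 16 tissues. On the W chromosome 4 of 17 genes were higher in ovary, or 23.53%, and on Z 19 of 608, or 3.12%, against 4.04% of all genes, in an annotation of build GRCg7b. The somatic arrays were labelled as of both sexes. HINTW averaged 11.16 over the ovary groups, against 12.18 in cerebral cortex and 5.36 in ileum. Its adjusted p was 0.208 when ovary group means were tested against tissue means. The means of pineal gland, whole intestine and jejunum were 5.70, 5.80 and 5.90. Like that of ileum, these lay under the 5.94 of testes_w17, although each tissue has arrays labelled female. Whether the labels or the level of HINTW in these tissues account for this was not tested.

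The largest difference was that of LOC422926, a locus without a gene name in the table used. It read 14.51, 14.49 and 14.43 in ovarian-cortex_w16, 14.63, 14.55 and 14.53 in ovary_w17 and 14.39, 14.40 and 14.14 in ovary_y2, against 3.96 to 7.52 over the somatic arrays. It was the highest value of the whole array on 6 of the 9 ovary arrays, and the files do not say whether it was saturated there. The difference in measured log2 signal was 8.49 ± 0.14 (standard error, SE). Both other probe sets of this locus had smaller differences, 1.66 and 1.27, neither of which reached the threshold. SYPL1, a synaptophysin-like protein of vesicle membranes, followed with 11.02 to 12.53 in ovary, against 3.23 to 9.04 in somatic tissues, and a difference of 6.61 ± 0.14. LOC430303 had a difference of 6.22 ± 0.14, with 11.12 to 13.24 in ovary and 3.87 to 7.78 in somatic tissues, while its other probe set had one of 0.13. The somatic mean of LOC422926, 5.96, lay under the median of every somatic array, which was 5.99 to 6.32, and the same was true of 108 of the 526 higher genes. The files used give no detection call, so such a difference is one of signal and gives no exact ratio of RNA.

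Among the 24 largest differences with no overlap, 7 were of unnamed loci and the others were genes of several roles. TPTE, a membrane protein with a phosphatase-like domain, had a difference of 5.81, and MAP1LC3C, an autophagy protein, one of 5.71. The other probe set of MAP1LC3C had a difference of 0.04. The kinase SGK2 stood 5.53 higher in ovary and CCNA1, cyclin A1, 5.50 higher. EMB, which accompanies monocarboxylate transporters to the membrane, had a difference of 5.42 and CFAP221, a protein of cilia, one of 4.77. CCNA1 and EMB were also high in the closest comparisons, with means of 11.94 and 12.23 in testes_w17 and 12.59 and 13.48 in oocytes_w21. TPTE and MAP1LC3C averaged 10.52 and 10.96 in oocytes_w21 and were not called against that group. SGK2 averaged 9.845 there. FAM172BP and VPS29L, whose roles are left out here, had differences of 5.29 and 5.13. VPS29L averaged 9.63 in testes_w17 and was not called against testes. The 8 others are oocyte, germ line, granulosa and steroid genes and are described with their groups.

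**Figure D2:**
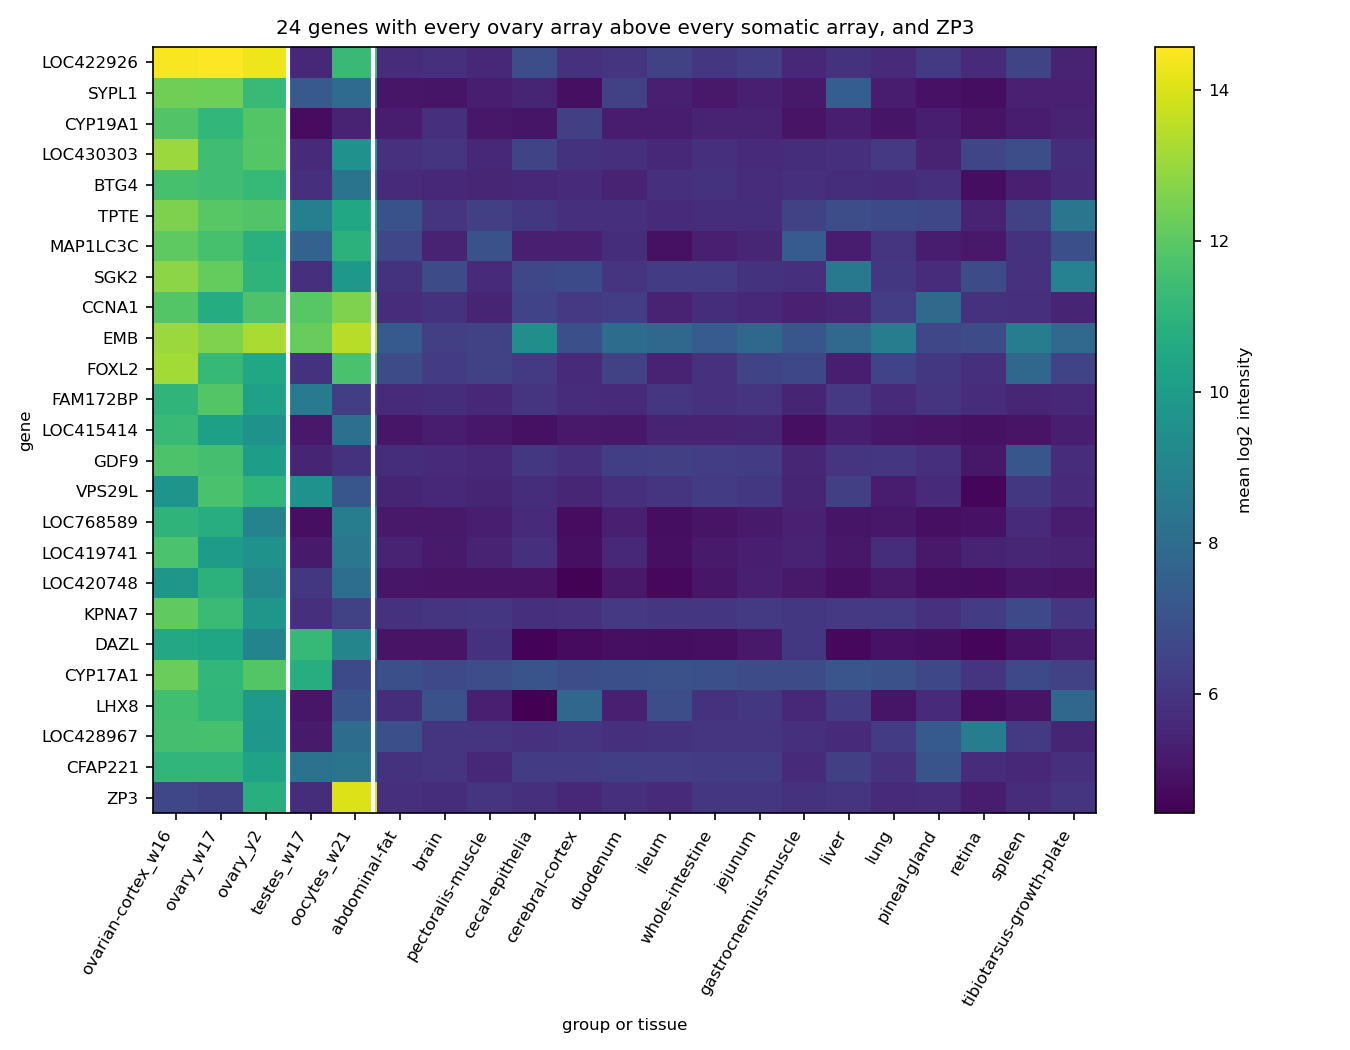
Mean log2 intensity of the 24 genes of largest difference and of ZP3 (rows) in ovary groups, testes, oocytes and 16 somatic tissues (columns), by colour. The ovary columns are high throughout except for ZP3, which averaged 6.57 in ovarian-cortex_w16, 6.41 in ovary_w17 and 10.79 in ovary_y2.

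Genes by which oocytes grow and store RNA were the group with the largest share of higher genes among the 29 lists. Of 18 oocyte factors measured, 12 were higher in ovary, none lower and 6 not called, with a median difference of 2.67. Over all genes 4.04% were higher and 0.484% lower. BTG4, which in the mouse recruits the deadenylase that clears maternal RNA, read 11.41, 11.69 and 11.80 in ovarian-cortex_w16, 12, 10.52 and 11.86 in ovary_w17 and 11.13, 11.21 and 11.35 in ovary_y2, against 4.08 to 6.61 over the somatic arrays. Its lowest ovary array lay far above the highest somatic array, and the difference was 5.85 ± 0.13. GDF9, a growth factor secreted by oocytes, read 11.62, 11.62 and 11.97 in ovarian-cortex_w16, 12.22, 11.68 and 10.81 in ovary_w17 and 10.09, 10.24 and 10.00 in ovary_y2, against 4.18 to 8.09 over the somatic arrays. Ovary was above somatic tissue without overlap in all groups, least so at 2 years, with a difference of 5.19 ± 0.14.

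Other oocyte factors were called as well. KPNA7, an importin that carries proteins into the nucleus of mammalian oocytes, was 5.01 ± 0.13 higher. LHX8, a homeobox factor needed for oocyte growth in mice, was 4.95 ± 0.15 higher, although brain at 21 days averaged 9.09. The RNA-binding protein genes ZAR1L and CPEB1 were 4.77 and 3.97 higher, and VLDLR, which in hens takes up yolk lipoprotein into the oocyte, was 3.96 ± 0.15 higher. WEE2, a kinase that holds oocytes in meiosis, was 3.42 higher, and its arrays of ovarian-cortex_w16 (8.15, 7.93 and 8.38) and ovary_y2 (7.86, 8.11 and 8.16) lay below those of ovary_w17 (10.98, 10.06 and 10.35). NOBOX, a homeobox regulator of oocyte genes, and NPM2, a histone chaperone of eggs, were 2.44 and 2.11 higher.

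Members that were not called included BMP15, a relative of GDF9, which had 6.20 to 6.63 in ovarian-cortex_w16, 5.50 to 7.32 in ovary_w17 and 6.64 to 6.92 in ovary_y2, against 4.08 to 6.92 over the somatic arrays. The probe set chosen for MOS, the kinase that arrests eggs at metaphase, had a difference of -0.34, while another probe set of that gene had one of 4.08. Each gene entered the comparison through 1 probe set, the brightest on average, whatever its other probe sets showed. Over all genes, 95 that were not called had another probe set with a difference of at least 2, and 219 of 265 higher genes with several probe sets had another one under 2.

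The egg coat genes fell into 2 kinds. Of 8 measured, 3 were higher in ovary, against 4.04% of all genes, and none lower, and the median difference was 0.87. ZP2 read 10.00, 10.29 and 10.02 in ovarian-cortex_w16, 11.43, 11.15 and 11.89 in ovary_w17 and 10.56, 10.59 and 11.72 in ovary_y2, against 4.20 to 7.50 over the somatic arrays, and its difference was 4.47 ± 0.14. ZP4 was 4.13 ± 0.16 higher, with 10.12 to 11.10 in ovary and 4.29 to 8.61 in somatic tissue. Both were high in all ovary groups, whereas ZP3, with a difference of 2.14 ± 0.14, stood 0.79 above the somatic mean in ovarian-cortex_w16, 0.63 in ovary_w17 and 5.01 in ovary_y2. That SE leaves out the spread between ovary groups. With group means of ovary tested against tissue means the adjusted p of ZP3 was 0.00762. UMOD, listed with the synonym ZPD, averaged 6.20 in ovarian-cortex_w16, 6.37 in ovary_w17 and 8.25 in ovary_y2, against 6.03 in somatic tissues, and was not called, with a difference of 0.91. Nor was ZPAX, with 0.84, which had its highest mean, 7.57, in ovary_w17.

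A minority of the genes for germ cell RNA-binding proteins and for the piRNA pathway, the small-RNA defence against transposons, was higher in ovary. Of 21 measured, 6 were higher in ovary, against 4.04% of all genes, and none lower, with a median difference of 0.92. DAZL, an RNA-binding protein of germ cells, read 10.34, 10.71 and 10.54 in ovarian-cortex_w16, 9.87, 10.95 and 10.44 in ovary_w17 and 8.98, 8.85 and 9.19 in ovary_y2, against 3.55 to 6.94 over the somatic arrays. All ovary arrays lay above the somatic range, and the 3 at 2 years were the lowest of them. Its somatic mean was 4.99, under the median of every somatic array, and the difference in signal was 5.0 ± 0.12. TDRD5 and PIWIL1 of the piRNA pathway were 3.31 and 3.21 higher, and TDRD1 and HENMT1 of the same pathway 2.34 and 2.18. The bromodomain gene BRDT was 2.90 higher, with 9.60, 9.81 and 9.80 in ovarian-cortex_w16, 8.72, 7.95 and 9.76 in ovary_w17 and 6.77, 6.79 and 6.94 in ovary_y2, against at most 7.11 on a somatic array. DDX4, the vasa helicase, was not called, with a difference of 1.35.

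Most meiosis genes were not called. Of 23 measured, 2 were higher in ovary and 21 not called, with a median difference of 0.13. The 2 are 8.7% of the list, against 4.04% of all genes, so the count says little about meiosis genes as a set. SPO11, which makes the DNA breaks of meiotic recombination, read 10.05, 9.66 and 9.96 in ovarian-cortex_w16, 7.66, 8.02 and 8.63 in ovary_w17 and 9.45, 10.04 and 9.48 in ovary_y2, against 3.70 to 7.11 over the somatic arrays. Its difference of 3.67 ± 0.13 was present in all ovary groups, and ovary_w17 was the lowest group. SPATA22, a partner of the recombination machinery, was 2.32 higher. The synaptonemal complex gene SYCP3 averaged 4.88 in ovarian-cortex_w16, 5.10 in ovary_w17 and 5.14 in ovary_y2, against 5.38 in somatic tissues.

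The granulosa list was led by CYP19A1, the aromatase that turns androgens into oestrogens. It read 12.27, 11.82 and 11.37 in ovarian-cortex_w16, 11.09, 10.79 and 11.54 in ovary_w17 and 11.94, 11.93 and 11.71 in ovary_y2, against 3.79 to 7.44 over the somatic arrays. The ovary arrays lay within a narrow band above that range, the somatic mean of 5.30 was again under the array medians, and the difference in signal was 6.31 ± 0.13. Its second probe set had a difference of 5.13, with 9.84 in ovarian-cortex_w16, 11.57 in ovary_w17 and 9.29 in ovary_y2, against 5.10 in somatic tissues. FOXL2 had a difference of 5.38 ± 0.14 with an adjusted p of 2.84e-123, which rests on the spread of arrays within groups. With group means of ovary tested against tissue means its adjusted p was 3.39e-08. WNT4, a signal of ovarian development, was 4.37 ± 0.15 higher, with 11.50, 11.40 and 11.35 in ovarian-cortex_w16, 9.83, 10.18 and 10.14 in ovary_w17 and 10.34, 10.28 and 9.97 in ovary_y2, against 4.52 to 8.56 over the somatic arrays.

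Of 23 genes measured in the granulosa list, CYP19A1 among them, 6 were higher in ovary, none lower and 17 not called. The median difference was 0.74, and the share of all genes higher was 4.04%. CYP19A1 did not follow the list on the oocytes_w21 arrays, where it averaged 5.43 and the list 8.825. Which cells of the ovary held CYP19A1 was not tested. The gap junction gene GJA1 was 2.74 higher. NR5A1, the steroidogenic factor that switches on steroid enzymes, was 2.48 higher. FSHR, the receptor for follicle-stimulating hormone, was 2.32 higher, but its lowest ovary array, 7.47, lay under the highest somatic array, 8.21. AMH, the anti-Mullerian hormone, was not called by its chosen probe set, with a difference of -0.07. Another probe set for AMH averaged 11.81 in ovarian-cortex_w16, 12.56 in ovary_w17 and 11.61 in ovary_y2, against 5.92 in somatic tissues, and the files do not settle which of them reports the gene.

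Several enzymes that make sex steroids were higher in ovary. Of 21 genes for steroid synthesis, 8 were higher, against 4.04% of all genes, and none lower, with a median difference of 1.30. STAR, which brings cholesterol into mitochondria, was 3.66 ± 0.14 higher. CYP11A1, which cuts the cholesterol side chain, read 10.19, 9.78 and 8.90 in ovarian-cortex_w16, 11.75, 11.67 and 10.83 in ovary_w17 and 10.25, 10.51 and 8.93 in ovary_y2, against 3.53 to 7.25 over the somatic arrays. It was high in all ovary groups and highest in ovary_w17, with a difference of 4.44 ± 0.13.

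CYP17A1, the enzyme that opens the way to androgens, read 12.86, 12.53 and 11.37 in ovarian-cortex_w16, 11.89, 10.47 and 11.07 in ovary_w17 and 11.95, 12.34 and 11.29 in ovary_y2, against 4.58 to 8.64 over the somatic arrays. No ovary array overlapped with the somatic range, and the difference was 4.99 ± 0.13. HSD3B1, which forms progesterone, was 2.62 ± 0.13 higher, with 7.62, 7.17 and 6.84 in ovarian-cortex_w16, 10.30, 10.53 and 11.51 in ovary_w17 and 7.93, 8.44 and 7.47 in ovary_y2, against 4.09 to 7.79 over the somatic arrays. Only ovary_w17 lay clear of the somatic range for HSD3B1. AKR1D1, a steroid 5-beta-reductase also abundant in liver, was 4.15 ± 0.20 higher, and liver on day 0 averaged 12.53.

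Hormone receptors and theca genes were mixed. LHCGR, the receptor for luteinising hormone, was 3.33 ± 0.12 higher, with 8.50 to 9.94 in ovary and 3.67 to 7.07 in somatic tissue. Of 22 hormone receptors only LHCGR and FSHR were called, and the median difference was 0.04. The progesterone receptor PGR and the oestrogen receptor ESR2 had differences of 1.94 and 1.59 and were not called. Of 15 theca and Leydig genes, 4 were higher, namely CYP17A1, LHCGR, HSD3B1 and the mesenchymal factor TCF21 with 2.17, and the median was 0.27. The shares higher were 9.09% of the receptors and 26.67% of the theca and Leydig genes, against 4.04% of all genes. For the receptors such a count says little about the set.

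Among 24 transcription factors of the gonad and mesonephros, 5 were higher, against 4.04% of all genes, and none lower, with a median of 0.54. NR0B1, the nuclear receptor DAX1, read 11.77, 11.89 and 11.87 in ovarian-cortex_w16, 10.14, 9.90 and 10.69 in ovary_w17 and 9.50, 9.00 and 9.57 in ovary_y2, against 4.08 to 9.90 over the somatic arrays. The cortex arrays were highest and those at 2 years reached into the somatic range, where liver at 49 days averaged 9.33. Its difference was 4.29 ± 0.17. SOX3 was 3.45 higher and BNC1, a zinc finger factor of epithelia and germ cells, 2.56. EMX2, a factor of the urogenital ridge, had differences of 0.26 and 3.24 by different probe sets.

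Some epithelial genes were higher. Of 14 genes of the surface epithelium and mesothelium, 4 were higher, against 4.04% of all genes, and none lower, with a median of 0.15. The tight junction gene CLDN1 was 4.38 ± 0.21 higher, and EPCAM, an epithelial adhesion molecule, read 11.90 to 12.93 in ovary, against 4.04 to 14.23 over the somatic arrays, with a difference of 3.19 ± 0.17. Intestine reached higher levels of EPCAM than ovary, and jejunum at 14 days averaged 14.09. The desmosome gene DSP was 2.59 higher. CDH1, E-cadherin, had a difference of -1.86 and was not called.

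**Figure D3:**
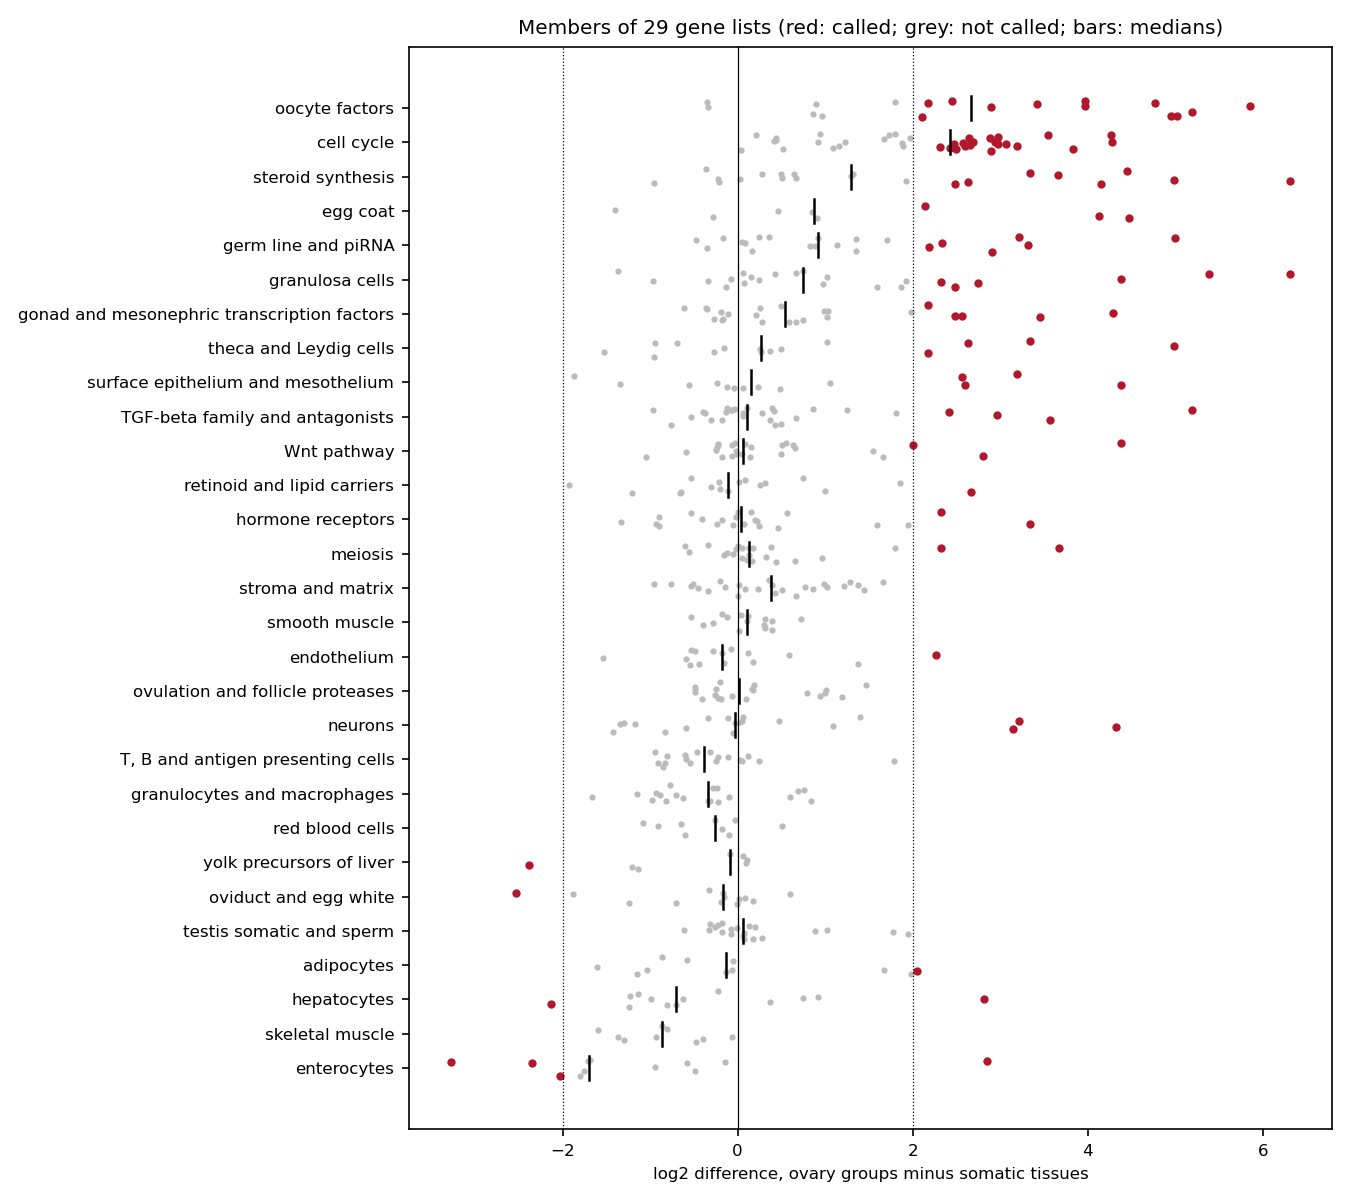
Log2 difference between ovary groups and somatic tissues for the members of 29 gene lists, 1 point per gene, with the threshold of 2 marked. Oocyte factors had a median of 2.67 and cell cycle genes of 2.42, against 0.005 over all genes, and enterocyte genes had a median of -1.70.

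Ligands and antagonists of growth factor pathways included a few strong members. Of 29 genes of the TGF-beta family and its antagonists, 4 were higher: GDF9, the BMP antagonists CHRDL1 (3.57 ± 0.17) and NBL1 (2.42), and BMP2 (2.97 ± 0.18). The median was 0.11. Of 26 Wnt pathway genes, WNT4, WNT6 (2.80 ± 0.14) and the antagonist SFRP2 (2.01) were higher, with a median of 0.06. WNT6 had 8.46 to 9.56 in ovary, against 4.53 to 7.79 in somatic tissue, without overlap. CYP26A1, which breaks down retinoic acid, was the 1 higher gene of 17 for retinoid and lipid carriers, with 2.67 ± 0.15. The shares higher were 13.79% of the TGF-beta list, 11.54% of the Wnt list and 5.88% of the retinoid list, against 4.04% of all genes. With lists this short, these counts say little about the families.

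Many cell cycle genes were higher in ovary. Of 37 measured, 20 were higher in ovary, against 4.04% of all genes, and none lower, with a median difference of 2.42. CCNB1, cyclin B1, read 12.93, 12.77 and 12.98 in ovarian-cortex_w16, 14.05, 13.30 and 13.70 in ovary_w17 and 13.72, 13.66 and 13.61 in ovary_y2, against 6.17 to 12.44 over the somatic arrays. AURKB, a mitotic kinase, was 4.26 ± 0.15 higher and TPX2, a spindle protein, 3.55 ± 0.15 higher, both without overlap. CDC20, the activator of the anaphase complex, was 3.83 higher with overlap. Not all members took part: TOP2A, a topoisomerase of dividing cells, had a difference of 0.04, MKI67 one of 1.16 and PCNA one of 1.23. The mean level of the list was 9.70 in ovarian-cortex_w16, 9.43 in ovary_w17 and 9.41 in ovary_y2, beside 9.40 in testes_w17 and 9.72 in oocytes_w21, against 6.29 to 8.92 over the tissue means. Against testes_w17 1 member was higher and 1 lower in ovary, and against oocytes_w21 none was higher and 1 lower. The shares of all genes were 5.26% higher and 4.74% lower against testes_w17, and 2.5% and 1.36% against oocytes_w21. These counts were near those shares, so they are no result about the list.

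Lists for other cell types that a whole ovary could hold had few called genes, neurons apart. Of all genes, 4.04% were higher and 0.484% lower. At these shares lists this short can hold no called gene, so such counts say little about the cell types. None of 26 stroma genes, 15 smooth muscle genes, 18 lymphoid genes, 19 myeloid genes, 9 red cell genes and 9 skeletal muscle genes was called. Their median differences were 0.38, 0.11, -0.39, -0.34, -0.25 and -0.87, in that order. The endothelial factor SOX17 was 2.27 higher, while the other 14 endothelial genes were not called. Of 19 neuron genes, UCHL1, a deubiquitinase of neurons and germ cells, was 4.32 ± 0.17 higher and the neurofilaments NEFL and NEFM 3.21 and 3.14, with a list median of -0.02. None of 21 genes of testis somatic cells and sperm was called.

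The 63 lower genes were most often highest in some parts of the gut. The somatic tissue with the highest mean was ileum for 20 of them, jejunum for 14 and duodenum for 6. These are 31.7%, 22.2% and 9.5%, against 9.6%, 2.9% and 2.8% of all genes. The other gut tissues did not share this. Whole intestine was highest for 2, or 3.2% against 2.7%, and cecal epithelia for 1, or 1.6% against 10.6%. FABP1, a fatty acid carrier of gut and liver, had the largest fall, by 3.27 on the log2 scale, with 5.31 to 5.57 in ovary, against 4.24 to 14.85 over the somatic arrays. Ovary thus lay within the somatic range, near its lower end. APOA4 and CDHR2 of the intestinal brush border also fell, by 2.35 and 2.03. SLC15A1, the intestinal peptide transporter, went the other way and was 2.84 ± 0.17 higher, with 9.43 to 10.92 in ovary and a somatic median of 5.87. These calls depended on how tissues were weighed, 5 of the 16 being gut. With organ classes at equal weight FABP1, APOA4 and CDHR2 had differences of -1.93, -1.57 and -0.88 and were not called. With group means of ovary tested against tissue means their adjusted p-values were 0.364, 0.401 and 0.482, and that of SLC15A1 was 0.356.

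No yolk or egg white gene was called higher in ovary, against 4.04% of all genes, a share at which lists this short can hold none. Of 7 yolk precursor genes of the liver, APOB was lower, by 2.38, and the vitellogenins VTG1 and VTG2 averaged 5.17 and 5.83 in ovarian-cortex_w16, 5.60 and 5.87 in ovary_w17 and 5.70 and 5.68 in ovary_y2, against 5.57 and 5.68 in somatic tissues. Of 13 oviduct and egg white genes, AVD, avidin, was lower, by 2.53, and none was higher. TTR, transthyretin, was the lower hepatocyte gene, by 2.13. HPX, the haem carrier hemopexin, was the higher one, with 2.82 ± 0.21, and read 6.55, 7.84 and 7.69 in ovarian-cortex_w16, 10.50, 10.79 and 10.99 in ovary_w17 and 10.47, 10.40 and 11.07 in ovary_y2, against 4.36 to 13.89 over the somatic arrays. In the test of group means against tissue means APOB, AVD, TTR and HPX had adjusted p-values of 0.442, 0.2, 0.401 and 0.0932.

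The ovary groups were then set against each other, to ask how they vary. A gene was called at an adjusted p under 0.05 over 12604 genes and a log2 difference of at least 1, which is 2-fold (limma on the 9 ovary arrays). Between ovary_y2 and ovary_w17 705 genes were higher at 2 years, 5.59%, and 715 lower, 5.67%, together 11.3%. Between ovarian-cortex_w16 and ovary_w17 1063 genes were higher in cortex, 8.43%, and 717 lower, 5.69%, together 14.1%. With each array centred on its median this last split was 1356 higher and 541 lower. Between ovary_y2 and ovarian-cortex_w16 933 genes were higher at 2 years, 7.4%, and 1440 lower, 11.4%, together 18.8%. Of the calls between 2 groups most were also free of overlap between their arrays: 5.49% of all genes were higher and 5.61% lower in this way in ovary_y2 against ovary_w17, 8.1% and 5.58% in ovarian-cortex_w16 against ovary_w17, and 7.34% and 11.4% in ovary_y2 against ovarian-cortex_w16. Age differs with the piece of tissue in the comparisons with cortex. Between ovary_y2 and ovary_w17 it differs with the labelled sex, male in ovary_w17, and with the spread between arrays. Age cannot be told apart from these in any of the 3 comparisons, which also share their groups. Leaving out replicate 1, 2 or 3 of every group left 1732, 668 or 795 calls between ovary_y2 and ovary_w17, against 1420.

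Among the largest increases at 2 years were an egg coat gene, proteases and antibody genes. ZP3 was 4.38 ± 0.48 higher in ovary_y2 than in ovary_w17 (adjusted p = 0.000382) and 4.22 ± 0.48 higher than in ovarian-cortex_w16 (adjusted p = 0.000172). MMP9, a protease of the matrix, read 8.80, 11.86 and 12.15 in ovary_y2, against 6.64, 5.93 and 6.51 in ovary_w17 and 5.94, 6.42 and 6.42 in ovarian-cortex_w16. All arrays at 2 years were higher, array 1 least so, and the difference from ovary_w17 was 4.58 ± 0.68. MMP10, another protease, was 4.01 ± 0.42 higher than in ovary_w17, and so was F13A1, a clotting transglutaminase, by 4.01 ± 0.34.

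A pair of immunoglobulin genes was among those chosen for the size of their increase. JCHAIN, the joining chain of secreted antibodies, read 12.08, 10.74 and 12.99 in ovary_y2, against 8.29, 7.25 and 7.85 in ovary_w17 and 8.59, 8.15 and 8.57 in ovarian-cortex_w16. IGLL1, an immunoglobulin light chain gene, was 5.08 ± 0.47 higher than in ovarian-cortex_w16 and 3.76 ± 0.47 higher than in ovary_w17. The unnamed locus LOC770705 was 5.41 ± 0.29 higher than in ovary_w17. Of 16 genes of T, B and antigen presenting cells, which include JCHAIN, 2 were higher and 1 lower in ovary_y2 than in ovary_w17, and of 18 myeloid genes 7 were higher and 2 lower. The shares of all genes were 5.59% higher and 5.67% lower. The mean level of the myeloid list was 7.09 to 7.87 over the arrays of ovary_y2, against 6.82 to 6.98 over those of ovary_w17, and its part in the other differences was not tested.

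Some steroid and granulosa genes were higher and others lower in ovary_y2 than in the other ovary groups. HSD17B1, which forms oestradiol, read 12.33, 12.57 and 10.48 in ovary_y2, against 9.14, 8.15 and 7.56 in ovary_w17 and 7.26, 7.13 and 6.89 in ovarian-cortex_w16. Its level at 2 years was above all other ovary arrays, by 3.51 ± 0.51 over ovary_w17 and 4.70 ± 0.51 over ovarian-cortex_w16. FST, follistatin, which binds activin, read 9.18, 9.69 and 8.80 in ovary_y2, against 6.31, 7.20 and 5.87 in ovary_w17 and 6.50, 6.82 and 6.43 in ovarian-cortex_w16. INHBB, an activin subunit, was 2.68 ± 0.48 higher than in ovary_w17 and 2.55 ± 0.48 higher than in ovarian-cortex_w16. FOXL2 was lower in ovary_y2 than in ovarian-cortex_w16, by 2.70 (SE 0.31, adjusted p = 0.00019).

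Of 23 granulosa genes, 5 were higher and none lower in ovary_y2 than in ovary_w17, and 5 were higher and 3 lower than in ovarian-cortex_w16. Among 20 steroid genes tested, 3 were higher and 5 lower in ovary_y2 than in ovary_w17, and 3 were higher and 1 lower than in ovarian-cortex_w16. The shares of all genes were 5.59% higher and 5.67% lower against ovary_w17, and 7.4% and 11.4% against ovarian-cortex_w16. In ovarian-cortex_w16 against ovary_w17, FOXL2 was 1.91 ± 0.31 and WNT4 1.37 ± 0.18 higher. CYP11A1 was lower in cortex by 1.79, and HSD3B1, by another probe set than in the main comparison, by 2.04.

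Some oocyte and germ line genes were lower at 2 years. Of 18 oocyte factors, 6 were lower and none higher in ovary_y2 than in ovary_w17, and 5 were lower and none higher than in ovarian-cortex_w16. In these comparisons 5.67% and 11.4% of all genes were lower, in that order. KPNA7 read 9.72, 9.81 and 9.80 in ovary_y2, against 11.16, 11.61 and 11.24 in ovary_w17 and 11.82, 12.03 and 12.46 in ovarian-cortex_w16. The arrays at 2 years lay below all others, and KPNA7 fell by 2.33 against cortex (SE 0.21, adjusted p = 6.86e-05). GDF9 was lower than in ovarian-cortex_w16 by 1.63, and DAZL by 1.52.

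Of 20 germ line genes tested, 4 were lower and none higher in ovary_y2 than in ovary_w17, and 5 were lower and none higher than in ovarian-cortex_w16. The shares of all genes lower were 5.67% and 11.4%. BRDT, by another probe set than in the main comparison, fell by 2.31 and TDRD5 by 2.23 against cortex. Cell cycle genes differed mainly in comparisons with cortex. Of 37, 2 were higher and 3 lower in ovary_y2 than in ovary_w17, with a median of 0.01. These counts were near the shares of all genes, 5.59% higher and 5.67% lower. In ovarian-cortex_w16 against ovary_w17 8 of the 37 were higher and 3 lower, against 8.43% and 5.69% of all genes. In ovary_y2 against ovarian-cortex_w16 3 of the 37 were higher and 12 lower, against 7.4% and 11.4% of all genes. NDC80, a kinetochore protein, was lower there by 2.38 and KIF23, a motor of cell division, by 2.04. CDC25A, a phosphatase that starts the cell cycle, was 2.00 ± 0.40 higher. The medians of the 3 lists in ovary_y2 against ovarian-cortex_w16 were -0.58, -0.47 and -0.58 for oocyte, germ line and cell cycle genes, against -0.03 over all genes.

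Many stroma genes were higher at 2 years, and smooth muscle genes mainly relative to cortex. Of 26 stroma and matrix genes, 9 were higher and none lower in ovary_y2 than in ovary_w17, and 13 were higher and none lower than in ovarian-cortex_w16. Of all genes, 5.59% were higher and 5.67% lower in the first comparison, and 7.4% and 11.4% in the second. COL1A1, type I collagen, read 13.31, 13.84 and 12.87 in ovary_y2, against 11.99, 10.83 and 11.55 in ovary_w17 and 10.20, 9.65 and 9.84 in ovarian-cortex_w16. The 3 groups did not overlap, and cortex was the lowest. Its difference between ovary_y2 and ovarian-cortex_w16 was 3.44 ± 0.32, and COL1A2 had one of 2.89 ± 0.29. Of 14 smooth muscle genes tested, 4 were higher and none lower in ovary_y2 than in ovary_w17, and 9 were higher and 1 lower than in ovarian-cortex_w16, led by ACTG2, gamma smooth muscle actin, with 3.69 ± 0.32 and TAGLN, transgelin, with 3.40 ± 0.27.

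The cortex of 16 weeks also differed from the ovary of 17 weeks in these lists. None of 26 stroma genes was higher and 6 were lower in ovarian-cortex_w16 than in ovary_w17, and of 14 smooth muscle genes none was higher and 6 were lower. The shares of all genes were 8.43% higher and 5.69% lower. TAGLN read 6.28, 5.77 and 5.61 in cortex, against 8.53, 8.78 and 8.33 in ovary_w17. HPX was lower in cortex by 3.40 (SE 0.33). The largest positive differences of cortex from ovary_w17 were those of ZC3H11A, an RNA export factor, with 3.64 ± 0.43, and REXO1, an exonuclease gene, with 3.32 ± 0.35. PDIA3, a chaperone of the endoplasmic reticulum, followed with 3.27 ± 0.25. PDIA3 averaged 10.54 in ovary_y2, against 10.47 in cortex and 7.20 in ovary_w17. ZC3H11A and REXO1 averaged 8.79 and 8.47 in ovary_y2, between the other groups. NEIL3, a DNA glycosylase, was 3.00 ± 0.28 higher in cortex than in ovary_w17, and averaged 6.75 in ovary_y2.

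**Figure D4:**
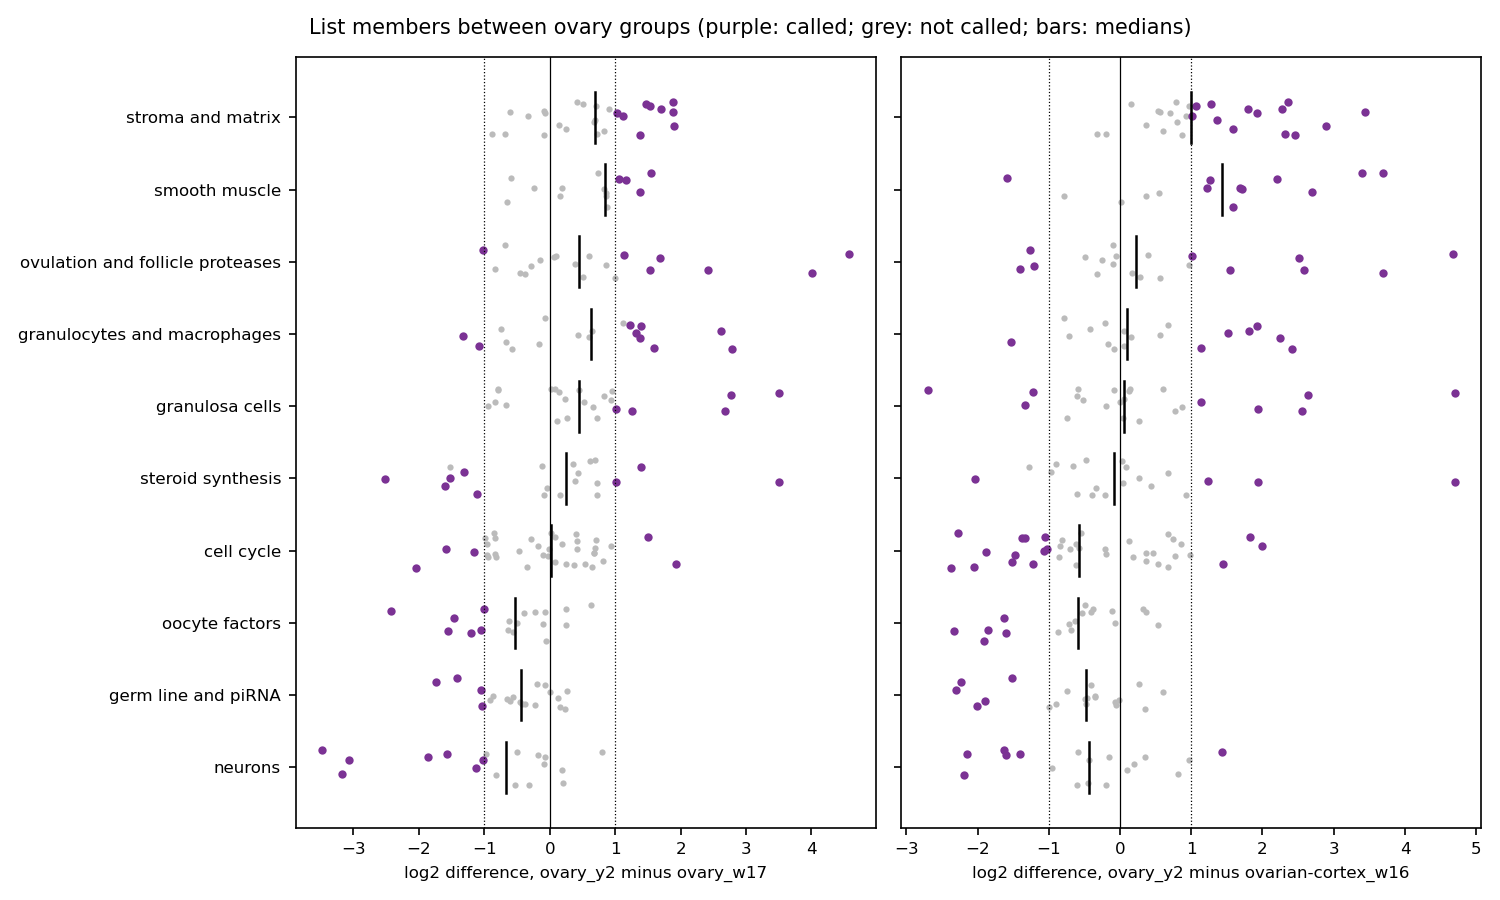
Log2 difference of ovary_y2 from ovary_w17 and from ovarian-cortex_w16 for the members of 10 gene lists, 1 point per gene. Stroma genes had medians of 0.70 and 0.99 and oocyte factors of -0.53 and -0.58 in the 2 comparisons, which share ovary_y2.

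Some genes of catecholamine and corticoid cells were higher in ovary_w17 than in the other ovary groups. TH, tyrosine hydroxylase, which makes the precursor of dopamine, read 6.05, 5.89 and 5.82 in ovarian-cortex_w16 and 6.55, 7.20 and 6.44 in ovary_y2, against 10.10, 9.80 and 9.83 in ovary_w17. The highest somatic array had 7.55. Its difference was -3.99 ± 0.22 in ovarian-cortex_w16 against ovary_w17 (adjusted p = 4.73e-06) and -3.18 ± 0.22 in ovary_y2 against ovary_w17 (adjusted p = 4.12e-05). CHGA, the granule protein chromogranin A, read 9.45, 9.30 and 9.45 in ovarian-cortex_w16 and 7.59, 7.89 and 7.82 in ovary_y2, against 10.98, 10.94 and 11.82 in ovary_w17. Several somatic tissues had CHGA at such levels, with means of 12.02 in pineal gland, 10.58 in retina and 10.47 in duodenum. CYP21A1, the steroid 21-hydroxylase of the adrenal cortex, read 6.09, 6.54 and 6.84 in ovarian-cortex_w16 and 6.72, 6.76 and 6.47 in ovary_y2, against 9.39, 8.60 and 9.97 in ovary_w17, and at most 7.58 on a somatic array. For TH and CYP21A1 all 3 arrays of ovary_w17 were above every somatic array.

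A list of 20 genes of the adrenal gland, put together after these values were seen, had 15 members on the array. Its mean level was 6.06 to 6.16 over the arrays of ovarian-cortex_w16 and 5.98 to 6.19 over those of ovary_y2, against 7.23 to 7.41 in ovary_w17, and 5.68 to 7.27 over the tissue means. The noradrenaline enzyme DBH averaged 5.28 in ovary_w17, against 5.27 in somatic tissues. Of the genes in this list, the steroid synthesis list also holds MC2R, the receptor for corticotropin, which averaged 7.37 in ovarian-cortex_w16, 7.86 in ovary_w17 and 5.34 in ovary_y2. HSD3B1 and CYP11A1 were highest in the same group, and the part of these genes in the differences of ovary_w17 was not tested.

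Other genes higher in ovary_w17 than in 1 or both of the other ovary groups were of several kinds. AvBD10, a defensin, read 5.66, 5.69 and 5.78 in ovarian-cortex_w16 and 5.29, 5.45 and 5.34 in ovary_y2, against 10.62, 9.48 and 9.33 in ovary_w17. In testes_w17 it read 9.86, 9.80 and 7.89. STMN2, a tubulin-binding protein of neurons, was lower in ovarian-cortex_w16 than in ovary_w17 by 4.03 (SE 0.28). FDX1B, a ferredoxin-like gene, was lower in ovary_y2 than in ovary_w17 by 3.89 (SE 0.40), with means of 8.06 in ovary_y2 and 9.45 in ovarian-cortex_w16, against 11.95 in ovary_w17, and with 11.87 in oocytes_w21. Also lower in ovary_y2 than in ovary_w17 was MBOAT2, a lysophospholipid acyltransferase, by 3.89 (SE 0.43). Of 18 neuron genes tested, 7 were lower and none higher in ovary_y2 than in ovary_w17, and 4 were lower and 2 higher in ovarian-cortex_w16 than in ovary_w17, with a mean list level of 6.81 to 6.87 in ovary_y2 and 7.19 to 7.31 in ovarian-cortex_w16, against 7.60 to 7.80 in ovary_w17. Of all genes, 5.67% were lower in the first comparison, and 5.69% were lower and 8.43% higher in the second.

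**Figure D5:**
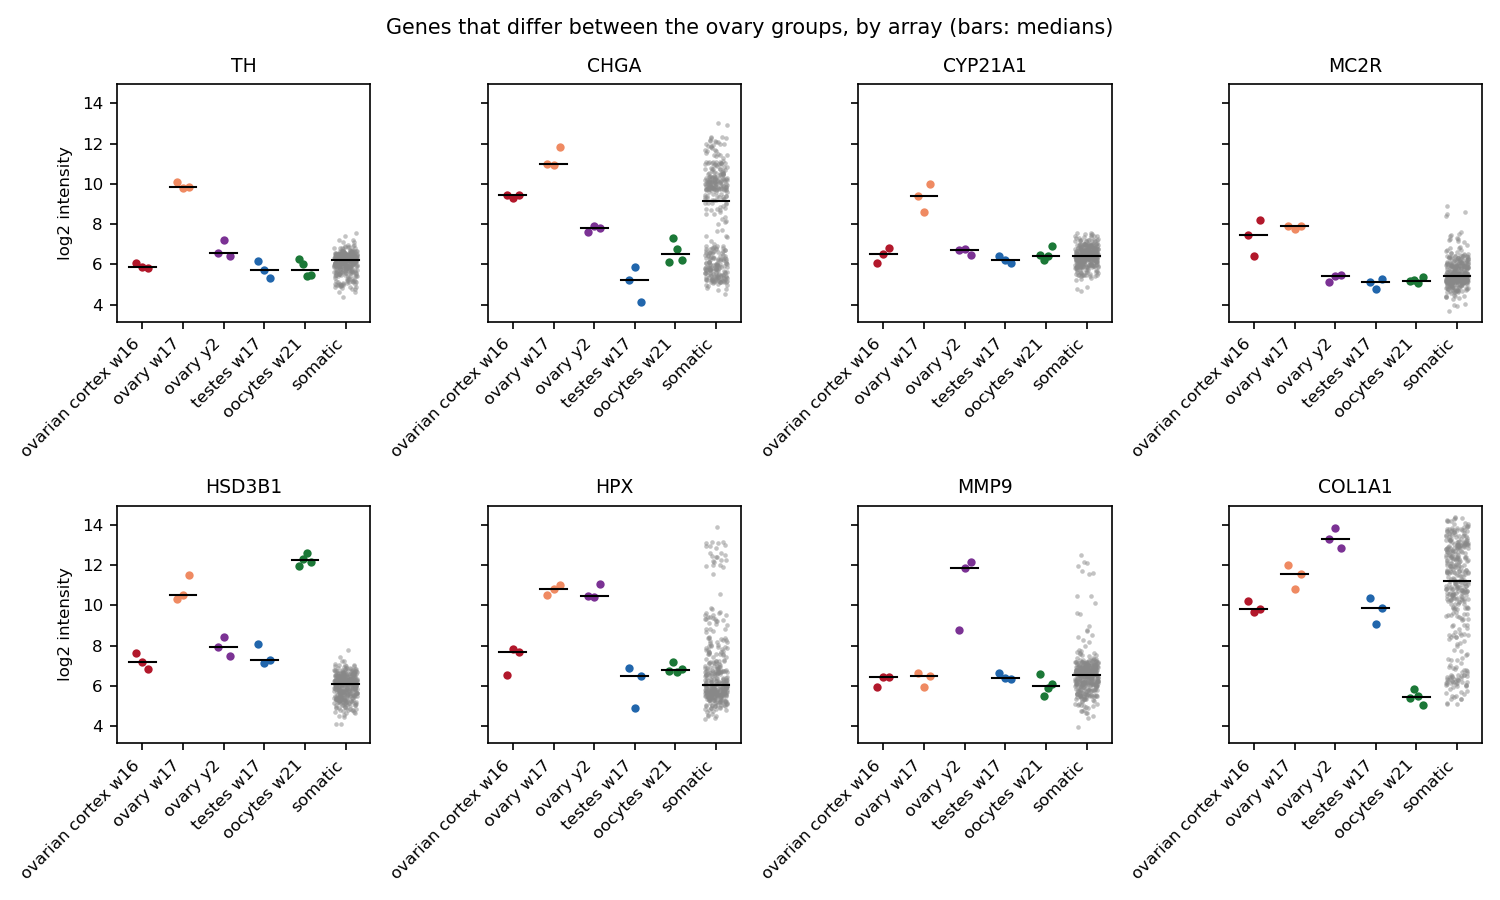
Log2 intensity of 8 genes that differed between the ovary groups, with a panel for each gene and 1 point per array; ovary groups stand left of testes, oocytes and somatic arrays. TH lay between 9.80 and 10.10 in ovary_w17, and MMP9 between 8.80 and 12.15 in ovary_y2.

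Ovary differed from testes in sperm, meiosis, oocyte, germ line and steroid genes, among other lists. In a fit of the gonad and oocyte arrays with the threshold of 2, 672 genes were higher in ovary than in testes_w17, 5.26% of 12777, and 605 lower, 4.74%, together 9.99%. Without overlap of arrays 5.07% were higher and 4.7% lower. LOC422926 had 14.14 to 14.63 in ovary, against 5.88, 5.60 and 5.28 in testes. AKR1D1 was 6.88 ± 0.27 higher in ovary and CYP19A1 6.85 ± 0.25. FOXL2 was 5.70 ± 0.29 higher (adjusted p = 5.14e-13), and HINTW 5.23 ± 0.26. GDF9 was 5.67 ± 0.24 higher and ZP2 4.80 ± 0.27.

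Lower in ovary were genes of sperm and of meiosis. TPPP2, a tubulin-binding protein, was lower by 7.81 (SE 0.20), with 4.50 to 5.54 in ovary, against 12.88, 12.54 and 13.15 in testes. PLCZ1, the sperm phospholipase that activates eggs, was lower by 7.40 (SE 0.27), and KIF2B, a kinesin, by 7.49 (SE 0.29). Of 23 meiosis genes 14 were lower and none higher, and of 21 genes of testis somatic cells and sperm 14 were lower and none higher, with medians of -2.49 and -3.50, against 0.08 over all genes. Of 20 germ line genes 7 were lower and 1 higher. The shares of all genes were 4.74% lower and 5.26% higher. Of 18 oocyte factors 9 were higher and none lower, of 8 egg coat genes 3 and of 21 steroid genes 7. PIWIL1 was lower in ovary by 2.45. DAZL, with 10.33, 11.43 and 11.85 in testes, and CYP17A1, with 11.07, 10.22 and 10.91, were not called, and their differences were -1.22 ± 0.27 and 1.02 ± 0.33.

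Against the arrays titled oocytes_w21, ovary had higher levels of many stroma genes and of several oocyte factors. Here 320 genes were higher in ovary, 2.5% of those tested, and 174 lower, 1.36%, together 3.87%. Without overlap of arrays 2.35% were higher and 1.24% lower. Of 26 stroma genes 15 were higher and 2 lower, with a median of 2.26. COL1A1 was 6.10 ± 0.26 and DCN, decorin, 5.70 ± 0.20 higher. Of 18 oocyte factors 8 were higher in ovary and none lower. GDF9 read 5.93, 5.90, 5.76 and 6.07 on the oocyte arrays, which lay below all ovary arrays, and KPNA7, ZAR1L and ZP4 were 4.70, 4.19 and 4.27 higher in ovary.

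Several granulosa genes were lower in ovary than on the oocyte arrays. Of 23, 1 was higher in ovary and 7 lower, with a median of -1.29, against 2.5% and 1.36% of all genes. FOXL2 read 11.18, 11.53, 11.79 and 12.19 on the oocyte arrays, within the range of the ovary arrays, and its difference was -0.06 ± 0.26 (adjusted p = 0.885). INHA, the inhibin alpha subunit, was lower in ovary by 5.96 (SE 0.24) and ZP3 by 6.12 (SE 0.31). RLN3, a relaxin, was lowest relative to the oocyte arrays, by 7.12 (SE 0.25), with 13.57, 13.20, 13.81 and 12.84 on these. CYP19A1 was higher in ovary by 6.18 ± 0.23 and CYP17A1 by 5.03 ± 0.29. The values of GDF9, KPNA7, ZAR1L, ZP4, FOXL2 and INHA did not go with the title oocytes. Some other germ cell genes were above somatic tissues on these arrays. DAZL averaged 9.045 and BTG4 8.31, against 4.99 and 5.59 in somatic tissues. The mean level of the oocyte factor list was 7.415, against 6.097 to 6.445 over the tissue means and 8.68 to 9.28 over the ovary group means. That of the germ line list was 6.517, against 5.829 to 6.219 over the tissue means and 6.96 to 7.53 over the ovary group means. The granulosa list had 8.825, against 5.998 to 6.85 over the tissue means and 7.51 to 8.19 over the ovary group means. What cells the arrays held was not tested, and they are named here by their title only.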

How the data were processed

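Total RNA extracted with Trizol was hybridised to the Affymetrix Chicken Genome Array, per the labels. The deposited values are log2 intensity, 1 per probe set and array, made by the authors with Affymetrix Expression Console 1.1, per the submitters' processing notes; how arrays were normalized is not stated in any source used here. Titles and source names gave the groups, ages and replicate numbers. The members and the gene lists were chosen with earlier results of these data known.

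Of 38535 probe sets, 96 controls were left out, 27168 with 1 gene symbol were tested, and 177 with several and 11094 without a symbol were not. Symbols were updated by gene number for 26853 probe sets in a RefSeq gene table (GRCg7b). A probe set was dropped as dim if none of its group means reached percentile 25 of the values, and the brightest remaining probe set of a gene, by its mean in that fit, stood for it, so it can differ between comparisons. Linear models with 1 mean per group (limma 3.58.1, R 4.3.3) gave differences, SEs and Benjamini-Hochberg adjusted p-values. SEs and p-values in ovary against somatic tissues use the spread of arrays within groups, not that between ovary groups or tissues. Genes named were FOXL2, ZP3, the 24 of largest difference without overlap, up to 6 per gene list by size, up to 8 per direction between ovary groups and up to 6 against testes and oocytes; all other list members named, and the adrenal genes, were chosen after their values were seen. On simulated data in 13005 genes, 100% of 50 genes changed by 2.5 were recovered against somatic tissues, 80% changed by 1.5 in ovary_y2 against ovarian-cortex_w16, 76% in ovary_y2 against ovary_w17, and 88% changed by 2.5 against testes. Of changes under the thresholds, 0% of size 1.5 were recovered against somatic tissues and 6% against testes. At size 0.5 these were 0% and 2% in the 2 pairs. The rule bars such changes unless noise lifts them, so these low shares were largely fixed in advance. The simulated noise was drawn for each gene separately, so it held no deviation shared by a whole array. All groups of a gene were given 1 common mean. Apart from the added changes the simulation thus held no differences between tissues or between ovary groups, which the real data have.

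Arrays of the same replicate number were checked for pairing. Correlations of deviations from group means lay between -0.085 and 0.028 among ovary groups, which are not paired, and were 0.484, 0.104 and 0.112 between ovary_w17 and testes_w17. Array 1 of ovary_w17 had similar correlations with array 1 of brain_d7 (0.512), liver_d0 (0.504) and oocytes_w21 (0.517), so this value is not particular to testes. Alternatives were filters, normalizations, other summaries of probe sets, array weights, the replicate block, labelled sex, subsets of groups and replicates left out in turn. Python 3.11.15 with matplotlib 3.10.9 made the plots. No sequences are printed.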

Additional observations from a re-analysis of the deposited data

Results flagged for a closer look

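Of 104 genes named for their level against somatic tissues, 20 also differed between ovary groups by at least 2 on the log2 scale at an adjusted p under 0.05 in the limma fit of the 9 ovary arrays, in 24 differences. Since all ovary groups were set against the same somatic mean, their differences from it differed by the same amounts, except that BRDT, ZPAX and HSD3B1 were read through another probe set than against somatic tissues.

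Most of the lower values were in ovary_y2 against ovarian-cortex_w16. These were the log2 differences of FOXL2 (-2.70), NR0B1 (-2.49), CYP26A1 (-2.48), KPNA7 (-2.33), BRDT (-2.31), TDRD5 (-2.23), the neurofilaments NEFL (-2.19) and NEFM (-2.15), the loci LOC419741 (-2.09) and LOC768589 (-2.08), and KIF23 (-2.04). Higher in ovary_y2 than in ovarian-cortex_w16 were ZP3 (4.22), JCHAIN (3.50), HPX (3.29), the collagen gene COL12A1 (2.36) and UMOD (2.05). In ovary_y2 against ovary_w17 ZP3 (4.38) and JCHAIN (4.14) were higher and WEE2 (-2.42) was lower. In ovarian-cortex_w16 against ovary_w17 HPX (-3.40), ZPAX (-2.67), WEE2 (-2.31) and HSD3B1 (-2.04) were lower, and AVD (2.08) was higher.

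Among 112 genes whose 4 arrays of oocytes_w21 were inspected, 3 had 1 array apart from others that nearly coincided. Chance alone flags about 1 group in 20, so this count is not above chance. The arrays apart read 12.13 for VLDLR, against 12.25 to 12.26 on the others, 5.30 for TCF21, against 5.50 to 5.52, and 10.21 for TPX2, against 10.98 to 11.04. For VLDLR and TCF21 these distances were under the median SD of a probe set in this group, 0.379.

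Probe sets without a gene symbol entered no comparison. Among these 11094 probe sets, 12 had their lowest ovary array at least 2 (log2) above the highest somatic array, with a gap of up to 3.86. The same held for 19 of 27168 probe sets with a gene symbol, with a gap of up to 6.62.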

How the results depend on the processing

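The count of genes higher in ovary than in somatic tissues, 526, moved by over 1.5 times when ovarian-cortex_w16 alone stood for ovary (824) and when the fold had to hold against every tissue (132). The count of lower genes, 63, was less stable. It was 31 with probe sets of a gene averaged, 27 with organ classes of equal weight, 14 with group and tissue means and 0 when the fold had to hold against every tissue. It was 171 with somatic groups of day 42 and later, 132 with ovarian-cortex_w16 alone, 116 with ovary_w17 alone and 98 with groups of narrow spread only, a setting chosen after the data were seen. With that average, counts were 934 for ovary_y2 against ovary_w17, 1120 for ovarian-cortex_w16 against ovary_w17, 1545 for ovary_y2 against ovarian-cortex_w16 and 849 against testes. With each replicate left out in turn, counts ranged from 668 to 1732 for ovary_y2 against ovary_w17 (668 without replicate 2, 795 without replicate 3), from 1512 to 1761 for ovarian-cortex_w16 against ovary_w17, from 2003 to 2228 for ovary_y2 against ovarian-cortex_w16, from 1272 to 1355 against testes, from 479 to 529 against oocytes, and from 514 to 534 higher and 63 to 67 lower against somatic tissues. The replicate block gave 527 higher and 63 lower genes against somatic tissues. FOXL2 against oocytes turned to 0.21 with quantile normalization, 0.11 with the replicate block and 0.13 without ovary_w17, and was called in none of them. ZPAX turned to -0.16 with ovarian-cortex_w16 alone. Among values of named genes against somatic tissues under alternatives, 2368 had the same outcome as in the main fit, called or not called. A call was lost in 92 and gained in 35. The cause of these shifts was not tested. Signal near background limits dim genes, and 3 arrays per group limit the pairs.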
